A study of Mus musculus with 6 samples.

Results

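The CCN genes and a set of genes regulated by the transcriptional cofactor YAP were followed through bulk RNA-seq of cultured mouse aortic endothelial cells from mice whose endothelium lacks OCT4, the pluripotency factor encoded by Pou5f1. The 10 genes were taken by their symbols from 54532 genes in the deposited count table: the CCN genes Ctgf, Cyr61, Nov, Wisp1 and Wisp2, and Ankrd1, Amotl1, Amotl2, Ajuba and Lats2. There were 3 female Oct4 KO and 3 male Oct4 KO libraries, from primary cultures grown untreated in F-12 medium with serum, heparin and endothelial growth factors, and the study asked what OCT4 does in endothelial cells of each sex. All 6 libraries carry the knockout, and the wild-type littermate cells were not analysed here, so nothing below compares knockout with wild type. The Cre driver, the age of the mice and the number of animals or cultures behind the 3 libraries of a sex are not given in the sources used here. A difference between the sexes therefore cannot be told apart from a difference between cultures. The p-values below rest on the scatter among 3 libraries of a sex, and part of that scatter may be technical only.

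CCN proteins are secreted matricellular proteins: they lie in the matrix, bind integrins and proteoglycans, and change how cells adhere, migrate and respond to growth factors, rather than building the matrix itself. Several CCN genes are read out by YAP and its relative TAZ, cofactors that enter the nucleus when cells spread on stiff matrix and that bind DNA through TEAD proteins. The Hippo kinase cascade holds YAP and TAZ in the cytoplasm, and part of it (the LATS kinase and the angiomotins) is itself switched on by YAP as feedback. In the vessel wall Cyr61 is needed for vessel development and Ctgf accompanies matrix deposition.

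Total counts were 19299742 to 23064738 per library. Pou5f1 had 0 counts in every library, which without wild-type cells does not check the genotype. Ddx3y, a Y-linked gene, had 0 counts in each female library and 1043, 731 and 1304 in the male libraries, as the sex labels have it. The RNA went against the endothelial label: of 15 endothelial markers 10 were under 1 CPM (counts scaled to the normalised size of the library) in all 6 libraries, with Emcn, Cldn5 and Robo4 at 0 throughout. Cdh5, the VE-cadherin gene, had 0, 4 and 0 counts in female and 2, 0 and 3 in male libraries. The endothelial list summed to 192 to 212 CPM in female and 271 to 335 CPM in male libraries. Its 3 markers at 10 CPM or more in every library did not run together. Eng (92.1 CPM in female and 253 CPM in male cells) was lower in female cells, and Flt1 (57.6 and 27.6 CPM) and Cd34 (44.1 and 11.9 CPM) were higher. The 12 fibroblast markers summed to 15350 to 17270 CPM in female and 7273 to 7928 CPM in male libraries, but did not all run this way. Col1a2, Tcf21, Mfap5 and Fbln1 (70.8 CPM in female and 595 CPM in male cells) were lower in female cells. The means of the others were higher, among them Dcn (6367 and 442 CPM) and Lum (1684 and 138 CPM). The 10 smooth muscle markers summed to 83.8 to 86.7 CPM in female and 166 to 182 CPM in male libraries, mostly through Smtn (57.5 CPM in female and 132 CPM in male cells). Of the 10, 4 (Tagln, Cnn1, Myh11 and Des) were under 1 CPM in all 6 libraries. Acta2, Lmod1, Smtn and Myl9 were lower in female cells, and Synpo2 and Itga8 (19.1 and 5.84 CPM) were higher. The 7 pericyte markers summed to 579 to 604 CPM in female and 756 to 795 CPM in male libraries. Of the 7, 0 were under 1 CPM in all libraries, but only 2 were at 10 CPM or more in every library. Rgs5 in female cells, and Kcnj8 (0.376 CPM) and Abcc9 (0.093 CPM) in male cells, averaged under 1 CPM. The pericyte markers did not run together: Rgs5 (0.755 CPM in female and 256 CPM in male cells) and Pdgfrb (315 and 464 CPM) were lower in female cells, and the means of the other 5 were higher, among them Cspg4 (108 CPM in female and 3.18 CPM in male cells). The 8 mesothelial markers (Msln, Upk3b and Lrrn4 at 0) reached at most 21.7 CPM in sum, and the 8 leukocyte markers (Ptprc, Adgre1 and Cd3e at 0) 70.3 to 85.9 CPM in female and 77.2 to 93.8 CPM in male libraries. The part of these cell type markers in the results below was not tested, and fewer cells of a type and less RNA per cell cannot be told apart in bulk RNA.

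Promoter windows from RefSeq (GRCm38.p6, the build of mm10; 250 bases before to 50 after a transcript start) were matched for 6 of the 10 genes, Cyr61 (under its present symbol Ccn1), Ankrd1, Amotl1, Amotl2, Ajuba and Lats2. They are shown because YAP acts through TEAD proteins, which bind the core CATTCC, read as GGAATG on the other strand. Searched on both strands, this core was in a window of 5 of the 6 genes, and in 14.7% of 32851 mouse windows of this length. The first share is by gene, with 2 windows for Lats2, and the second by window. Because the genes were listed as CCN genes and YAP targets, the 2 shares are not a test of enrichment. The first 4 windows below hold the core, marked by capitals, and that of Amotl1 is shown beside its paralog Amotl2 as a window without it. All are written 5′ to 3′ on the strand of the gene.
Cyr61, chr3:145649936-145650235, minus strand: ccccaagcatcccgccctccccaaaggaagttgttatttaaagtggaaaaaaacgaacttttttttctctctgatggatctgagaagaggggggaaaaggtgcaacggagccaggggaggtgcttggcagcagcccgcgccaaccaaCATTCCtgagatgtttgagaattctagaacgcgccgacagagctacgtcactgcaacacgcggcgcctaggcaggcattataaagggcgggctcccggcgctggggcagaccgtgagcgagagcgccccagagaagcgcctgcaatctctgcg
Ankrd1, chr19:36119795-36120094, minus strand: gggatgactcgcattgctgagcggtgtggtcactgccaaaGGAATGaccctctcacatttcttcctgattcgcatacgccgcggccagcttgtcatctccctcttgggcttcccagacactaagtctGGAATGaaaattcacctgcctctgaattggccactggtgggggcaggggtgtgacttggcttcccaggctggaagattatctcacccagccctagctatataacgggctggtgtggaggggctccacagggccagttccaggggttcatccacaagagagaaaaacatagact
Amotl2, chr9:102717554-102717853, plus strand: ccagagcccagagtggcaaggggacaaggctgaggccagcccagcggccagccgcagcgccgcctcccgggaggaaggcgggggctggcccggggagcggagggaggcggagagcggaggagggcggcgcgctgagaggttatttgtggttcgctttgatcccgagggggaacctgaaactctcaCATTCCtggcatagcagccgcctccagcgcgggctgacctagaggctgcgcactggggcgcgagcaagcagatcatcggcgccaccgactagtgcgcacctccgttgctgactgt
Ajuba, chr14:54577612-54577911, minus strand: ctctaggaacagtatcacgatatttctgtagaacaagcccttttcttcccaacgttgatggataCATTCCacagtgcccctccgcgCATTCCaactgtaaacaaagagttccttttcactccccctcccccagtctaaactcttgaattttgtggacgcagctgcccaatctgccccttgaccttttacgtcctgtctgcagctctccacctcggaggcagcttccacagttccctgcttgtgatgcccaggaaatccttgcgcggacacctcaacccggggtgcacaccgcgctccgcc
Amotl1, chr9:14614951-14615250, minus strand: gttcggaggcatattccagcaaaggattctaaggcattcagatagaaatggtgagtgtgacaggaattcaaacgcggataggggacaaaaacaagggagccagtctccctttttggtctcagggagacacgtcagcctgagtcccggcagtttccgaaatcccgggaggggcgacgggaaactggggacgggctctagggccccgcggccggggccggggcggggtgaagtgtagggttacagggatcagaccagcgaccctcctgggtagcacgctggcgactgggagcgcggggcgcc
The core of Cyr61 began 103 bases before the transcript start and that of Amotl2 65 bases before it. Ankrd1 held the core at 210 and 123 bases before the start, and Ajuba at 186 and 164. At least 2 cores were found in 1.36% of all windows. In Lats2 the first of 2 windows held a core 4 bases after the start and the second held none, and the Amotl1 window held none. The RefSeq start of Amotl1 used here lies 30056 bases inside the gene as the count table places it. That of Amotl2 lies 1132 bases inside, and those of the Lats2 windows 12265 and 23970 bases inside. The starts of Cyr61, Ankrd1 and Ajuba lie within 103 bases of the gene start. The CArG box, the binding motif of the serum response factor SRF, was in none of the 7 windows and in 1.63% of all windows. A match is a description of the letters and not evidence of binding, and a window without the core says nothing of TEAD binding elsewhere.

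**Figure D1:**
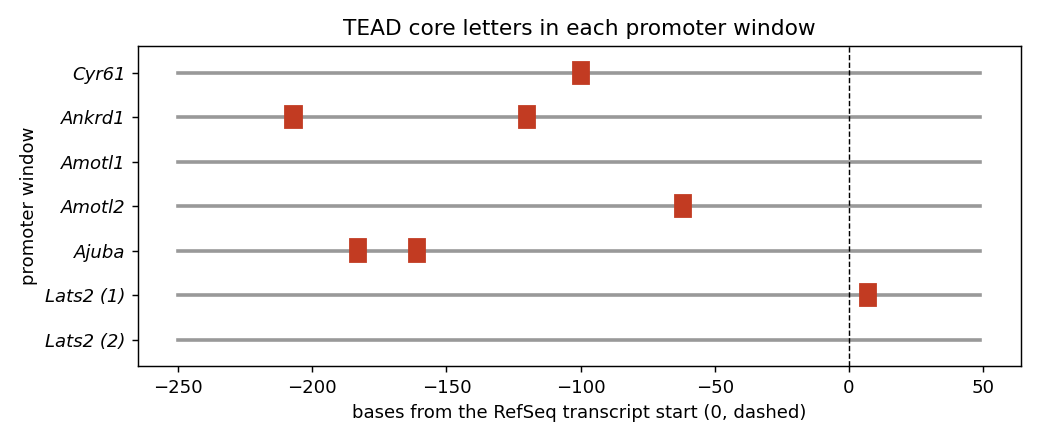
Positions of the TEAD core (red boxes, either strand) in the 7 promoter windows of 6 genes, in bases from the RefSeq transcript start. Ankrd1 and Ajuba each carry 2 cores upstream of the start, and the windows of Amotl1 and the second Lats2 start carry none.

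The genes were chosen by name, with their fold changes between female and male cells in these libraries already seen, so that their values are given as a description with no test. Each log2 fold change is the edgeR estimate ± SE, with female cells on top. For 9 of the 10 genes the female and male CPM ranges stood apart, as did those of 67.1% of the 14814 genes tested. In 6 genes female libraries lay below all male libraries (33.2% of all genes), in 3 above (33.9%). All 10 genes passed the filter on low counts.

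Among the CCN genes, female cells carried little Ctgf and Wisp2 RNA and male cells much of both, while Nov ran the other way. Ctgf (chromosome 10, 24595442 to 24598683 in mm10), also called Ccn2, encodes connective tissue growth factor, a classical TGF-beta and YAP target. It had 5.35, 4.81 and 9.21 CPM in the female libraries, against 319, 318 and 319 CPM in the male libraries. The male values were nearly identical, and female replicate 3 stood highest in its sex at 182 counts, against 111 and 94 in the other two. Ctgf averaged 6.46 ± 2.40 CPM in female and 319 ± 0.620 CPM in male cells (SD, n = 3 each), 49.4-fold lower in female cells (log2 fold change -5.63 ± 0.16).

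Wisp2 (chromosome 2, 163820861 to 163833146), or Ccn5, encodes the CCN protein that lacks the C-terminal module of the others and restrains growth of vascular smooth muscle cells. It had 2.22, 3.79 and 2.53 CPM in the female libraries, against 300, 309 and 276 CPM in the male libraries. This was the widest gap of the 10 genes, 104-fold lower in female cells (log2 -6.70 ± 0.14), resting on 170 counts in the 3 female libraries together and 19198 in the male ones. Counting error alone put the male over female ratio between 89.3 and 121 (95% exact binomial interval, counting error only).

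Cyr61 (chromosome 3, 145646976 to 145649981), or Ccn1, is an immediate early gene whose product binds integrins and promotes angiogenesis. Its levels were 27.4, 27.8 and 36.5 CPM in the female libraries, against 91.6, 113 and 107 CPM in the male libraries. The sexes did not overlap, but the gap was far smaller than for Ctgf, 3.39-fold lower in female cells (log2 -1.76 ± 0.12). Female replicate 3 was again the highest of its sex.

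Nov (chromosome 15, 54745702 to 54754039), or Ccn3, encodes a CCN protein linked in endothelial cells to quiescence and to restraint of inflammation. It had 93.8, 131 and 90.9 CPM in the female libraries, against 8.57, 6.75 and 9.37 CPM in the male libraries. Every female library was above every male one, 12.8-fold higher in female cells (log2 3.67 ± 0.15). Wisp1 (chromosome 15, 66891320 to 66923201), or Ccn4, a target of Wnt signalling through beta-catenin, had 46.8, 62.5 and 47.5 CPM in the female libraries, against 36.6, 38.4 and 32.0 CPM in the male libraries. The gap was narrow, 1.47-fold higher in female cells (log2 0.55 ± 0.12). The remaining CCN gene, Wisp3 (Ccn6), did not pass the filter, with 0, 5 and 0 counts in female and 2, 2 and 3 counts in male libraries. Its annotated span overlaps Tube1 on the other strand, so even these few reads are uncertain.

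**Figure D2:**
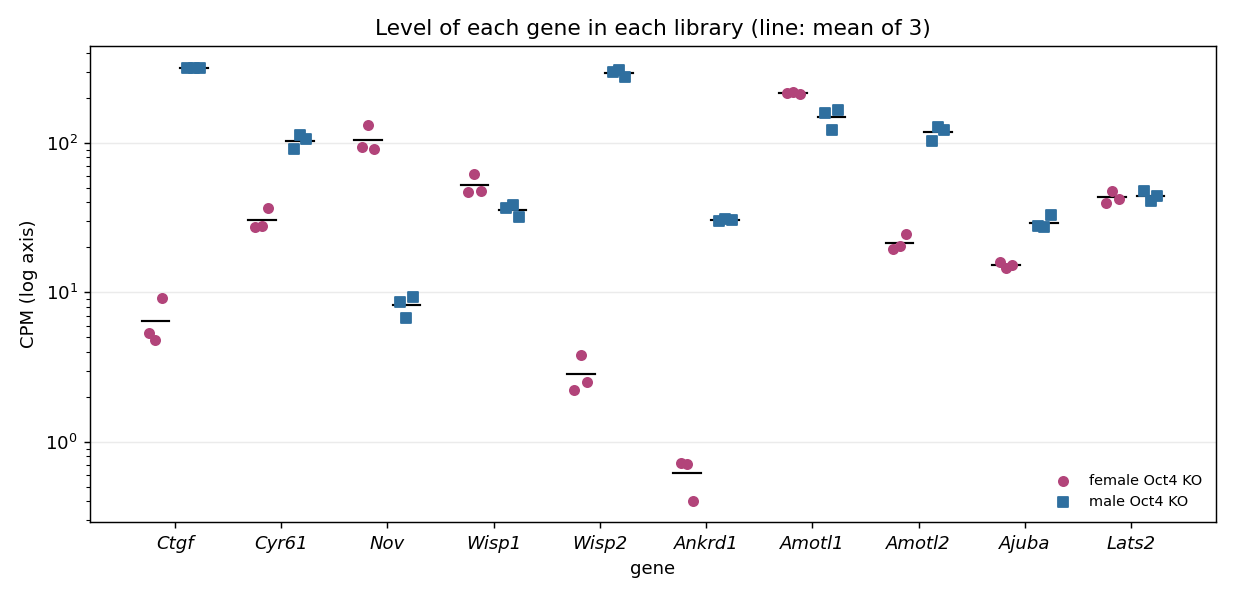
CPM of the 10 genes in each library on a log axis, with female Oct4 KO (circles) left of male Oct4 KO (squares) and a line at the mean of 3 libraries. Ctgf, Wisp2 and Ankrd1 are at most 9.21 CPM in every female library, and only Lats2 has overlapping sexes.

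Different genes made up most of the CCN RNA in the 2 sexes. In TPM (counts divided by gene length and scaled to one total per library), which allows levels to be compared between genes, the 5 CCN genes summed to 182, 234 and 191 in the female libraries, against 977, 1003 and 989 in the male libraries. Nov made up 56.2% ± 5.56 of this sum in female and 0.885% ± 0.170 in male cells (SD, n = 3 each). Wisp2 made up 2.25% ± 0.351 in female and 47.1% ± 1.61 in male cells. The share of Ctgf was 3.54% ± 1.45 in female and 34.3% ± 1.16 in male cells, so that Wisp2 and Ctgf led in male cells and Nov and Cyr61 in female cells. Cyr61 kept the most even share, 23.6% ± 5.14 in female and 15.8% ± 1.49 in male cells, and that of Wisp1 was 14.4% ± 0.769 and 1.97% ± 0.133.

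Ratios of 2 genes within a library do not depend on how libraries are scaled to each other. The TPM ratio of Ctgf to Cyr61 was 0.138, 0.122 and 0.178 in the female libraries, against 2.46, 1.98 and 2.12 in the male libraries. The ratio of Nov to Ctgf was 17.5, 27.2 and 9.84 in the female libraries, against 0.0268, 0.0211 and 0.0292 in the male libraries. Both ratios lay on opposite sides of 1 in the 2 sexes, in every library.

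**Figure D3:**
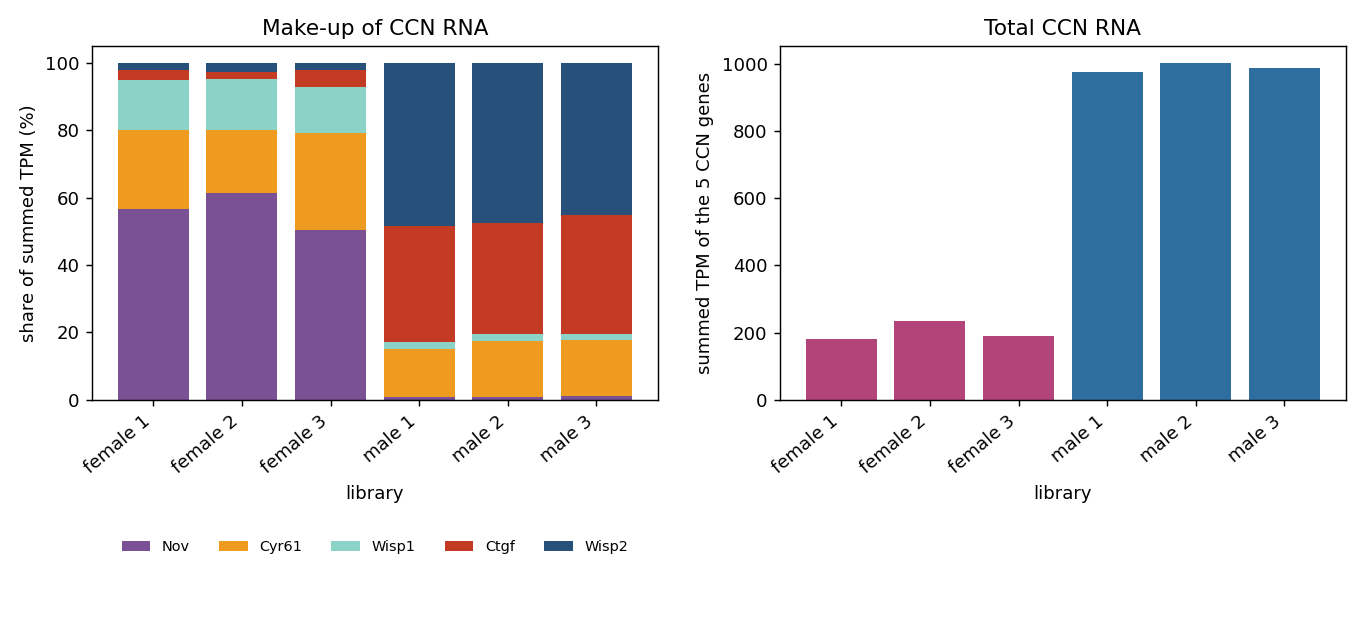
Left, share of each CCN gene in the summed TPM of the 5 in each library, female libraries left of male; right, the summed TPM. Nov fills 50.4% to 61.5% of the female bars and at most 1.03% of the male bars, and the male sums are 977 to 1003 TPM.

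Outside the CCN family, the YAP targets split as well: Ankrd1 and Amotl2 were far lower in female cells, Ajuba was moderately lower, Lats2 had overlapping sexes and Amotl1 was higher. Ankrd1 (chromosome 19, 36111965 to 36119844) encodes a nuclear and sarcomeric ankyrin repeat protein of stretched muscle and is one of the most used YAP readouts. It had 15, 14 and 8 counts in the female libraries, against 638, 620 and 738 counts in the male libraries. In CPM this was 0.615 ± 0.182 in female and 30.6 ± 0.555 in male cells (SD, n = 3 each), 49.7-fold lower in female cells (log2 -5.62 ± 0.20). Counting error alone allowed a male over female ratio of 35.9 to 70.6 (95% exact binomial interval), with female replicate 3 the lowest of its sex here.

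Amotl2 (chromosome 9, 102716672 to 102733418) and Amotl1 (chromosome 9, 14541966 to 14645056) encode angiomotin-like scaffold proteins that bind YAP at cell junctions and keep it out of the nucleus. Amotl2 had 19.6, 20.4 and 24.5 CPM in the female libraries, against 103, 128 and 122 CPM in the male libraries. It was 5.48-fold lower in female cells (log2 -2.45 ± 0.11). Its paralog Amotl1 had 216, 219 and 212 CPM in the female libraries, against 158, 123 and 167 CPM in the male libraries. It was 1.45-fold higher in female cells (log2 0.53 ± 0.10), without overlap, although the estimate shrank to 0.19 once the trend of fold change with gene length was removed. The TPM ratio of Amotl2 to Amotl1 was 0.146, 0.149 and 0.185 in the female libraries, against 1.05, 1.67 and 1.17 in the male libraries. Amotl1 thus led clearly in female cells. In male cells the ratio was near 1 in replicate 1 and the TPM ranges of the paralogs overlapped, so neither clearly led.

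Ajuba (chromosome 14, 54567472 to 54577558) encodes a LIM-domain junction protein whose Drosophila counterpart inhibits the Hippo kinase Warts. It had 15.9, 14.5 and 15.3 CPM in the female libraries, against 27.9, 27.2 and 32.9 CPM in the male libraries, 1.93-fold lower in female cells (log2 -0.95 ± 0.12). Lats2 (chromosome 14, 57689662 to 57758388), the kinase that phosphorylates YAP and a feedback target of it, had 39.5, 48.0 and 42.3 CPM in the female libraries, against 47.9, 41.1 and 44.5 CPM in the male libraries. Its sexes overlapped (log2 -0.04 ± 0.10), and the sign of this estimate changed without replicate 1 of either sex. With the length trend removed the estimate was -0.25.

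**Figure D4:**
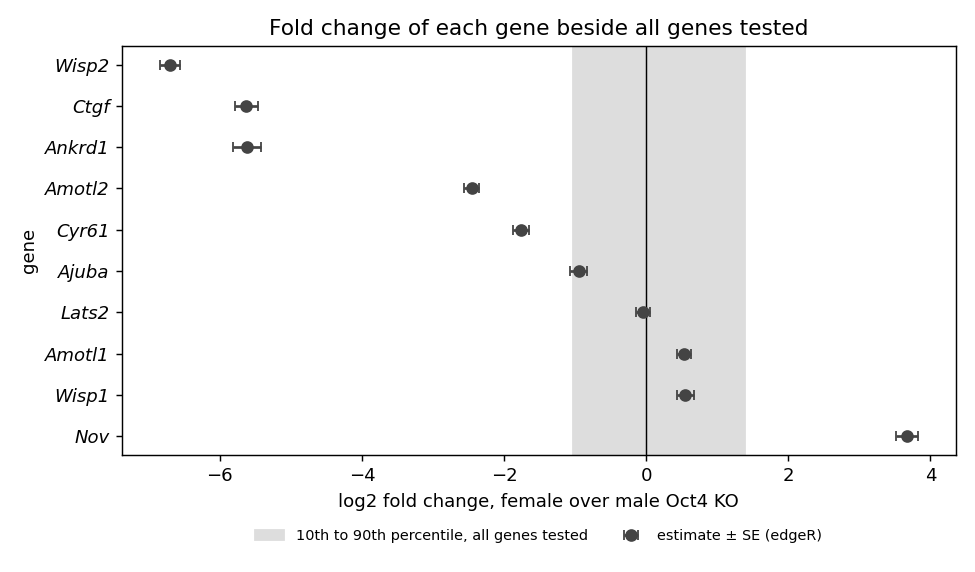
Log2 fold change of the 10 genes, female over male Oct4 KO, with bars of ± SE, over the grey band that holds the 10th to 90th percentile of all genes tested (-1.03 to 1.39). Wisp2, Ctgf, Ankrd1, Amotl2 and Cyr61 lie left of the band, Nov right of it and the other 4 inside.

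The median log2 fold change of the 10 genes was -1.36, beside -0.01 over all genes tested, and 7 estimates were below 0. Of all tested genes, 0.53% had a fold change as low as that of Wisp2 or lower, 0.78% as low as those of Ctgf and Ankrd1, 2.77% as low as that of Amotl2 and 4.36% as low as that of Cyr61. At the other end, 97.42% of tested genes were at or below Nov. Fold changes followed gene length in these libraries (Spearman rho 0.38 across the 10807 genes averaging 5 CPM or more; genes are not independent replicates). Ankrd1, Wisp2 and Cyr61 are short genes, at 1765, 1924 and 2019 bases. With the length trend removed their estimates were -5.24, -6.34 and -1.43.

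Ordered by TPM, female cells ran Nov (114 ± 25.8), Amotl1 (66.7 ± 2.40), Cyr61 (47.0 ± 6.90), Wisp1 (29.3 ± 5.27), Lats2 (19.3 ± 2.09), Ajuba (12.98 ± 0.636), Amotl2 (10.6 ± 1.07), Ctgf (6.99 ± 2.44), Wisp2 (4.61 ± 1.39) and Ankrd1 (1.09 ± 0.339). Only the neighbours Ctgf and Wisp2 overlapped over the 3 libraries. In male cells the order was Wisp2 (466 ± 16.0), Ctgf (339 ± 8.78), Cyr61 (156 ± 16.5), Amotl2 (57.0 ± 6.21), Ankrd1 (52.7 ± 0.866), Amotl1 (45.2 ± 8.04), Ajuba (24.5 ± 3.21), Wisp1 (19.4 ± 1.36), Lats2 (19.4 ± 1.71) and Nov (8.74 ± 1.62). There Amotl2 overlapped with Ankrd1 and with Amotl1, and Wisp1 with Lats2. Nov was the highest of the 10 in female cells and the lowest in male cells, and Cyr61 ranked between Amotl1 and Wisp1 in female and between Ctgf and Amotl2 in male cells.

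The coefficient of variation of CPM was 37.2% for Ctgf, 29.2% for Wisp2 and 29.6% for Ankrd1 in female cells, against 0.194%, 5.79% and 1.82% in male cells. Counting error was not taken out. The female libraries held 94 to 182 counts of Ctgf, 46 to 74 of Wisp2 and 8 to 15 of Ankrd1, so that it weighs most on Ankrd1. The female values of Ctgf differed by more than counting error alone gives at such counts. The male value of Ctgf, at 6321 to 7777 counts, was below counting error. Whether the spread is wider in female cells was not tested, and with 3 libraries of a sex an SD is uncertain. The median over the 10807 genes was 8.37% in female and 7.88% in male libraries. Amotl1 went the other way, at 1.69% in female and 15.7% in male libraries.

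For each gene, the 2 protein-coding genes closest in log2 CPM profile over the 6 libraries were found by root mean square distance among 10403 candidates. Apart from those of Lats2, whose sexes overlapped, they share the sex difference that makes up most of each profile. Those closest to Ctgf were Serpinb6b (distance 0.23) and Ulbp1 (0.27), to Wisp2 Frmd5 (0.15) and Cryab (0.26), and to Ankrd1 Dmrta2 (0.25) and Sema3d (0.27). Nov was closest to Pcdh19 (0.11) and Nptx2 (0.16), and Cyr61 to Ephb2 (0.07) and Adhfe1 (0.09). Amotl2 was closest to Ptgis (0.11), the prostacyclin synthase gene, and Tgm2 (0.11), the transglutaminase 2 gene. For Wisp1, Amotl1, Ajuba and Lats2 the nearest genes were Sypl and Ctns, Zfp788 and Paxip1, Aldh2 and Glis2, and Usp15 and Tcea1, all at 0.05 or less.

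The genes of YAP, TAZ and TEAD were mostly higher or not called in female cells. Of all genes tested, 60.7% were called by edgeR at an adjusted p under 0.05, 30.9% higher and 29.8% lower in female cells, and the counts below are to be read against these shares. Of 9 genes of YAP, TAZ and their DNA-binding partners 8 were tested, 4 were higher, Vgll3 was lower and 3 were not called, and with the length trend removed 3 were higher and 2 lower. Yap1 was at 173 ± 2.13 CPM in female and 135 ± 12.9 CPM in male cells (log2 0.35 ± 0.08, edgeR adjusted p = 0.00138), but was not called with the length trend removed (0.04, adjusted p = 0.621). Wwtr1, the TAZ gene, stood at 328 ± 25.01 CPM in female and 291 ± 27.3 CPM in male cells and was not called (log2 0.17 ± 0.09, edgeR adjusted p = 0.0989).

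Tead1, a TEAD factor gene, was higher at 258 ± 24.7 CPM in female against 147 ± 7.70 CPM in male cells (log2 0.81 ± 0.09, edgeR adjusted p = 3.78e-07). With the length trend removed its estimate shrank to 0.35 but was still called (edgeR adjusted p = 0.000224). Tead4 was higher at a low level (4.72 ± 0.455 against 2.43 ± 0.340 CPM), and Tead2 (log2 0.18 ± 0.09) and Tead3 (-0.16 ± 0.10) were not called. Tead2 was called higher without female replicate 2 (edgeR adjusted p = 0.0281). Tead3 was called lower by edgeR with upper quartile scaling (log2 -0.24, adjusted p = 0.0476), with total counts as the only scaling (-0.28, 0.0252), and with the length trend removed (-0.35, 0.00564). Vgll3, which competes with YAP for TEAD, was lower at 8.33 ± 0.654 CPM in female against 60.8 ± 2.40 CPM in male cells (log2 -2.87 ± 0.11, edgeR adjusted p = 8.09e-13). Vgll4, a TEAD co-repressor, was called higher (log2 0.36 ± 0.12, edgeR adjusted p = 0.0127), a call lost without female replicate 1 (adjusted p = 0.0723), male replicate 1 (0.0591) or male replicate 2 (0.0553) and with total counts as the only scaling (0.0846). Vgll2 had 0 CPM in all libraries.

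Hippo kinases, scaffolds and regulators were mostly higher in female cells: 15 of 24 tested were higher, Wwc1 and Fat1 were lower and 7 were not called, with a median log2 fold change of 0.39. With the length trend removed the counts were 13 higher and 6 lower. Dchs1, a giant protocadherin upstream of Hippo, was at 120 ± 4.004 CPM in female and 16.6 ± 0.647 CPM in male cells (log2 2.85 ± 0.09, edgeR adjusted p = 5.5e-14). Amot, the founding angiomotin, was at 64.6 ± 8.26 CPM in female and 14.1 ± 2.02 CPM in male cells (log2 2.20 ± 0.12), the same direction as Amotl1 and opposite to Amotl2. Map4k4, a kinase that acts on LATS, was at 1461 ± 56.4 CPM in female and 674 ± 47.0 CPM in male cells, and Sav1, the scaffold of the MST kinases, at 124 ± 8.83 and 49.3 ± 8.26 CPM. Taok1 (log2 0.99 ± 0.10) and the junction scaffold Tjp1 (1.08 ± 0.11) were also higher.

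The wider YAP signature did not move one way. Of 17 genes commonly used as YAP readouts that are not among the 10, all were tested, 8 were higher, 4 were lower and 5 were not called; the list median was -0.05. With the length trend removed the counts were 5 higher and 5 lower. Igfbp3, an IGF-binding protein gene, was at 94.7 ± 13.8 CPM in female and 8.49 ± 0.624 CPM in male cells (log2 3.48 ± 0.12, edgeR adjusted p = 2.23e-13). Ccdc80, a secreted matrix protein gene, was at 26.1 ± 2.34 CPM in female and 237 ± 11.5 CPM in male cells (log2 -3.19 ± 0.09, edgeR adjusted p = 2.09e-14). Nuak2, a kinase gene, was lower at 1.11 ± 0.295 against 8.86 ± 1.24 CPM, as were Gadd45a (log2 -1.06 ± 0.11), a stress-induced growth arrest gene, and Dock5 (-0.42 ± 0.12). Fjx1 (log2 0.93 ± 0.09) and Rbms3 (0.75 ± 0.09) were higher. The tyrosine kinase receptor gene Axl, the tissue factor gene F3, Foxf2, Nt5e and Ptpn14 were not called, with estimates between -0.10 and -0.05.

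**Figure D5:**
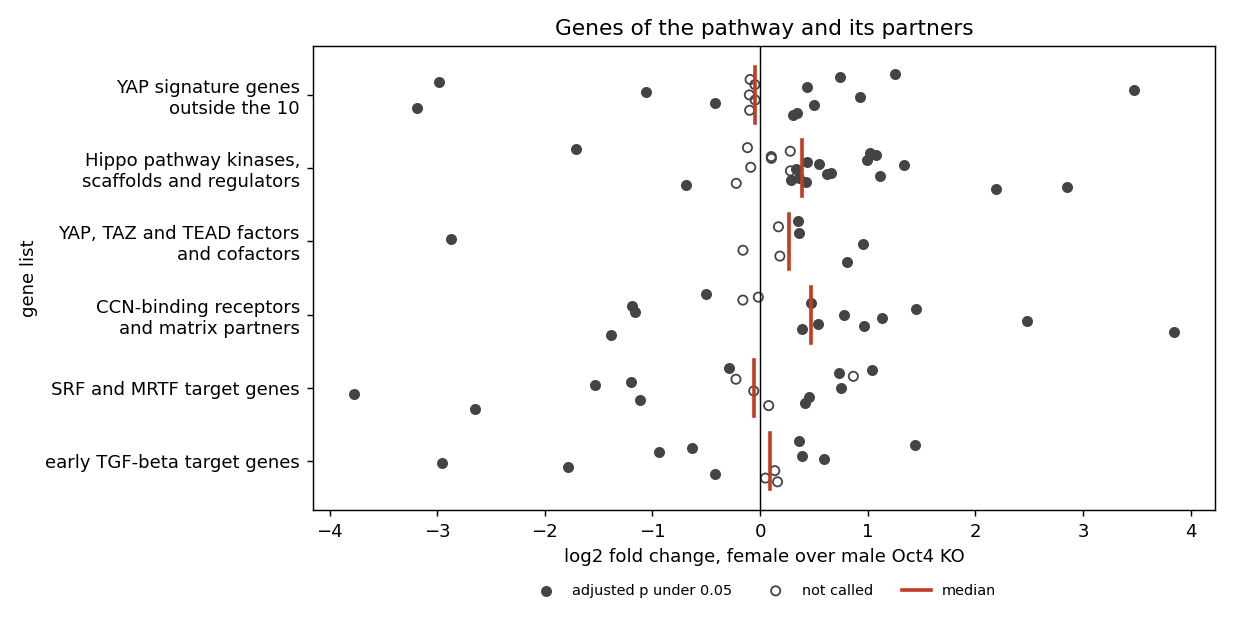
Log2 fold change, female over male Oct4 KO, of every tested gene in 6 lists (rows), filled where the edgeR adjusted p was under 0.05 and open otherwise, with a red line at the list median. The Hippo list has 15 genes called to the right of 0 and 2 to the left, whereas the YAP signature, SRF and TGF-beta lists have medians of -0.05, -0.06 and 0.09.

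Receptors and matrix partners of CCN proteins differed in both directions. Of 16 listed 15 were tested, 9 were higher, 4 were lower in female cells and 2 were not called. The list median was 0.47, and with the length trend removed the counts were 7 higher and 6 lower. The genes of integrin alpha v beta 3, a receptor of Cyr61 and Ctgf, were both higher: Itgav at 243 ± 18.3 CPM in female and 111 ± 8.08 CPM in male cells, and Itgb3 at 137 ± 11.3 and 49.9 ± 4.81 CPM. Itgb5, whose product pairs with the same alpha chain, was lower, at 243 ± 18.5 CPM in female and 553 ± 30.5 CPM in male cells (log2 -1.19 ± 0.08, edgeR adjusted p = 1.68e-09). Itga6, which also serves Cyr61, was at 146 ± 32.7 CPM in female and 26.1 ± 2.74 CPM in male cells (log2 2.48 ± 0.13). The proteoglycans that bind the Wisp1 protein went in opposite directions. Dcn was at 6367 ± 448 CPM in female and 442 ± 58.6 CPM in male cells, and Bgn at 1800 ± 107 CPM in female and 4699 ± 816 CPM in male cells. Dcn is also among the fibroblast markers given above. Itgb2 and Sdc4 were the other 2 lower genes (log2 -1.16 ± 0.15 and -0.50 ± 0.08).

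Genes that share inputs with Ctgf, Cyr61 and Ankrd1 divided as well. Of 12 early TGF-beta targets 4 were higher, 5 were lower and 3 were not called; the list median was 0.09. Pmepa1 (log2 -1.79 ± 0.09), the inhibitory SMAD genes Smad6 (-0.94 ± 0.11) and Smad7 (-0.63 ± 0.13), and Junb (-0.42 ± 0.09) were among the lower genes. Tgfbi went the other way, at 1887 ± 54.8 CPM in female and 698 ± 43.4 CPM in male cells, as did Ski (log2 0.59 ± 0.07), Skil (0.39 ± 0.10) and Tgif1 (0.36 ± 0.08). The calls of Junb and Skil were lost with the length trend removed.

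Of 17 genes of the SRF pathway, which like YAP responds to the actin cytoskeleton, 15 were tested, 5 were higher, 6 were lower and 4 were not called; the list median was -0.06. Acta2, the smooth muscle actin gene, was lower at 3.70 ± 0.696 CPM in female against 23.3 ± 1.75 CPM in male cells (log2 -2.65 ± 0.17, edgeR adjusted p = 5.54e-10). Smtn was at 57.5 ± 2.07 CPM in female and 132 ± 5.10 CPM in male cells, and Fhl2 at 12.8 ± 1.61 and 27.8 ± 3.27 CPM. Lmod1 was also lower, at 0.193, 0.870 and 0.101 CPM in the female libraries, against 4.74, 5.59 and 5.71 CPM in the male libraries (log2 -3.78 ± 0.48). Female replicate 2 stood highest of its sex, and without it the estimate was -5.12. Tpm1 (log2 0.73 ± 0.08) and Vcl (1.04 ± 0.15), genes of actin filaments and focal adhesions, were higher. Of this list 6 genes (Acta2, Tagln, Cnn1, Lmod1, Smtn and Myl9) are also among the smooth muscle markers, whose sum was 83.8 to 86.7 CPM in female and 166 to 182 CPM in male libraries; the part of smooth muscle cells was not tested.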

How the data were processed

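The deposited table gives unnormalised counts of reads for each gene in each library. The submitters' processing notes name HISAT2 2.0.5, featureCounts 1.5 and the mm10 build. Neither the strand setting nor the treatment of reads with several matches is stated there, so reads of overlapping antisense genes (Gm15270 over Ctgf, at most 13 counts in a library) cannot be told apart. Columns were matched to samples by the library name in the labels, with 0 other sample columns and 0 rows without a gene name. The gene length column is the authors' own and was used for TPM.

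The model was edgeR 4.0.16 under R 4.3.3 (genes kept by filterByExpr with sex as the group, TMM scaling, glmQLFit and glmQLFTest, two-sided, Benjamini-Hochberg over 14814 genes). CPM is over the library total multiplied by its TMM factor, and a count of 3, the limit that a count of 0 allows at 95%, is 0.123 to 0.153 CPM. The SE of a log2 fold change was taken as its size over the root of its F statistic, and can fall below counting error where counts are few. The fit was tested on simulated data. Members and lists were chosen with earlier results of these data known. Named pathway genes are up to 6 of each list with the smallest p, members behind counts of 5 or fewer, and all YAP, TAZ and TEAD genes; others were chosen after their values were seen. Alternatives were 3 other scalings, no filter, DESeq2 1.42.0, removal of the length trend (a per-library lowess offset), the replicate block, and leaving out each library. Some results are not reported here.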

Additional observations from a re-analysis of the deposited data

How the results depend on the processing

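The directions of 9 of the 10 genes held in all 14 alternatives. Lats2 alone changed sign, at 0.024 without female replicate 1 and 0.011 without male replicate 1. Its largest shift was to -0.25, both with the gene-length offset and with the replicate block plus that offset. The median log2 fold change of the 10 genes was -1.36, ranged from -1.43 to -1.30 without single libraries, and was -1.13 both with the gene-length offset and with the replicate block plus that offset. Ctgf stayed between -5.97 and -5.41, Wisp2 between -6.95 and -6.34, Ankrd1 between -5.75 and -5.24, Nov between 3.48 and 3.89, and Amotl1 between 0.19 and 0.61. Total counts as the only scaling shifted the median of all genes by -0.12. Of 91 pathway genes tested, 67 were called, 12 of which were not called with the gene-length offset, while 11 others became called. Of the 12, Arhgef17, Lrp1 and Fn1 also changed sign without being called. The number called in both directions together, in each of the 6 lists and over all genes, stayed within 1.5 times. Within a direction it did not: with the gene-length offset, lower calls in the Hippo list were 6 in place of 2, higher calls in the YAP signature 5 in place of 8, and lower calls among YAP, TAZ and TEAD genes 2 in place of 1. In that last list the replicate block with the offset left 2 higher calls in place of 4, and upper quartile scaling and total counts gave 2 lower calls. The deviations of libraries with the same replicate number from the mean of their sex had correlations of -0.018, -0.104 and -0.153. With means of only 3 libraries, this check cannot tell whether such libraries shared a batch, and the labels do not say what the number stands for. The fit with the replicate block called 8525 genes, against 8993 without it, and lost 0 of the 67 calls. Without single libraries 8236 to 8841 genes were called. Depth limits Ankrd1 and Wisp3, at 37 and 5 counts over the female libraries.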

Other observations

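The nearest tested protein-coding genes on either side of each gene, 6104 to 405219 bases away, were read beside it, a choice made after the values were seen. Their calls are to be read against the 60.7% of all tested genes that were called. The neighbours of Ctgf, Stx7 and Enpp1, were at 84.0 ± 6.44 and 409 ± 31.5 CPM in female and 79.2 ± 3.73 and 377 ± 23.5 CPM in male cells (SD, n = 3 each), and neither was called (log2 0.09 ± 0.09 and 0.12 ± 0.08, edgeR adjusted p = 0.403 and 0.226). Of the neighbours of Wisp2, Ada was lower (1.23 ± 0.274 CPM in female against 7.01 ± 1.06 CPM in male cells, log2 -2.50 ± 0.28) and Ywhab was not called (-0.07 ± 0.07). Around Ankrd1, Rpp30 (log2 -0.71 ± 0.17) and Pcgf5 (-0.78 ± 0.12) were both lower, by far less than Ankrd1 itself. Around Nov both neighbours were higher in female cells. Enpp2, the autotaxin gene, was at 13.01 ± 1.54 CPM in female and 2.18 ± 0.4999 CPM in male cells (log2 2.59 ± 0.22, edgeR adjusted p = 2.04e-08), and Colec10 averaged 1.37 ± 0.453 CPM in female cells, whereas all male libraries had 0 CPM. Both neighbours of Wisp1, Phf20l1 (log2 1.02 ± 0.12) and Ndrg1 (1.02 ± 0.12), were higher as well. Amotl2 lay between Anapc13 (log2 -1.19 ± 0.15), which was lower, and Ryk (0.11 ± 0.08), which was not called. Of the neighbours of Cyr61, Ddah1 was lower (log2 -1.01 ± 0.14) and Znhit6 was not called. Around Amotl1, Piwil4 was higher (1.83 ± 0.56) and Cwc15 was not called. Around Ajuba, Haus4 was lower (-0.53 ± 0.22) and 4931414P19Rik was not called. Lats2 lay between Xpo4 (0.50 ± 0.12), which was higher, and Sap18 (-0.37 ± 0.09), which was lower.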
